A study of Mus musculus with 2 samples.

Results

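The 9 genes followed through the cells of embryonic mouse skin were the early B cell factor genes Ebf1, Ebf2 and Ebf3, the adipogenic transcription factor genes Pparg, Cebpa and Cebpb, the lipid handling genes Lpl and Fabp4, and the progenitor surface gene Cd34. They were picked by symbol, not by a measured value, from the 32286 features of the count tables, and all 9 were found. Their UMIs (unique molecular identifiers, each standing for 1 captured transcript) numbered 15402 of 60633193 in the cells kept from the mutant library and 20052 of 96492210 in the cells kept from the control library.

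The mutant library came from E13.5 embryos of a cross of Axin2CreER and Rosa-lox-STOP-lox-SmoM2YFP mice, titled dermal SmoM2YFP mutant. In them Cre, driven from the Wnt target gene Axin2, turns on SmoM2, a permanently active form of the Hedgehog signal transducer Smoothened fused to YFP. The control library came from littermates titled as SmoM2YFP alone, so the loxP-flanked transgene is named for both groups and the Cre for the cross. The time of Cre induction is not given in the sources used here. Flank skin of 2 to 3 embryos was pooled per group, live cells were sorted, and 1 library with 10x Genomics 3′ chemistry was made per group. With 1 library a group there is no replicate check and no test: every interval given is a 95% interval for counting error only.

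EBF proteins are helix-loop-helix transcription factors known from B cells, neurons and the mesenchyme that gives rise to fat. In adipogenesis, as worked out largely in cultured mouse preadipocytes, C/EBPβ and EBF proteins act early and lead to PPARγ and C/EBPα, which hold up each other's expression and turn on lipid genes such as Lpl and Fabp4. In mouse skin the upper dermis forms hair follicle mesenchyme and the papillary layer, and the deep dermis and fascia give rise to reticular fibroblasts and dermal fat. Crabp1, a retinoic acid binding protein gene, is typical of upper dermis, and Dcn, Col14a1 and Abi3bp, which encode matrix proteins, are more typical of deep dermis.

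On GRCm38 the genes lie apart: Ebf1 (ENSMUSG00000057098) at chr11:44617317-45008091, Ebf2 (ENSMUSG00000022053) at chr14:67233292-67430918 and Ebf3 (ENSMUSG00000010476) at chr7:137193673-137314445. Pparg (ENSMUSG00000000440) is at chr6:115360951-115490399, Cebpa (ENSMUSG00000034957) at chr7:35119293-35121928 and Cebpb (ENSMUSG00000056501) at chr2:167688915-167690418. Lpl (ENSMUSG00000015568) is at chr8:68880491-68907448, Fabp4 (ENSMUSG00000062515) at chr3:10204088-10208576 and Cd34 (ENSMUSG00000016494) at chr1:194938819-194961279. All 9 are annotated as protein-coding in GENCODE M21. Exons of Ebf2, Ebf3, Cebpa and Cd34 share bases with an antisense RNA gene each, and these 4 antisense features had at most 4 UMIs in the dermal cells of either library. Cebpb shares exon bases with Tmem189 on the other strand, which had 614 mutant and 996 control UMIs in dermal cells, and how the counting treated strand is not given in the sources used here.

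Promoter windows from RefSeq (GRCm38.p6, 250 bases before to 50 after a start) were found for 6 of the 9 genes, in 9 windows: Ebf1, Ebf3, Pparg, Cebpa, Cebpb and Cd34. Upstream bases are shown for a start of each of 3 genes on which the dermal results turn: Ebf1 and Ebf3, which were higher in mutant dermis, and Pparg, which had fewer UMIs there. They run 5′ to 3′ on the gene's own strand, and capitals mark matches to the C/EBP motif TTGCNNAA on either strand. The windows are chr11:44619978-44620227 (plus strand, inside the annotated Ebf1 gene), chr7:137314446-137314695 (minus strand, directly upstream of Ebf3) and chr6:115421816-115422065 (plus strand, before an internal Pparg start). None of these bases is exonic in GENCODE M21.
Ebf1: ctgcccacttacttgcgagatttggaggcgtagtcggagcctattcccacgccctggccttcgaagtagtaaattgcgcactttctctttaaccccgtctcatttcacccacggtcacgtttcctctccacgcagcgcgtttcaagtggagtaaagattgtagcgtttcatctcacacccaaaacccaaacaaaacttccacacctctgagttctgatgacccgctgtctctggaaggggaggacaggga
Ebf3: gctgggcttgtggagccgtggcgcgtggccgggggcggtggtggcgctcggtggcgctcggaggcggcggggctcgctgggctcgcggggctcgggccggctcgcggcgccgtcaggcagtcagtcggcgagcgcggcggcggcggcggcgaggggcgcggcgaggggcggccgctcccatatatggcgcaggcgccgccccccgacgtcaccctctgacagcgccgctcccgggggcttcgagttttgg
Pparg: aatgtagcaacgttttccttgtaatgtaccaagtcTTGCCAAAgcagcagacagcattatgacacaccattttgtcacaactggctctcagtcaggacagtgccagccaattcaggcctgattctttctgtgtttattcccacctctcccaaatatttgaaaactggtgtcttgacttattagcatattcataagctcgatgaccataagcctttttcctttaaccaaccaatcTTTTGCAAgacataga
The motifs searched on both strands, in all 32851 windows of 300 bases, were TCCC and GGGA spaced by 2 bases for EBF, GACCACCCA for GLI, the zinc finger factors of Hedgehog signalling, TTGCNNAA for C/EBP, and the half-site AGGTCA in 2 copies spaced by 1 base for PPAR. They were present in 0.904%, 0.253%, 10.8% and 0.0396% of windows. Of the 9 windows of these genes only the printed Pparg window held a match, with the C/EBP motif starting 215 and 16 bases before the start. The motifs do not overlap each other there. These matches are letters in a window, not measured binding.

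The mutant library held 11909 barcodes with 73809828 UMIs and the control library 13566 barcodes with 109629368 UMIs, and filters and doublet removal left 8505 mutant and 11510 control cells. Their median depths were 6658 and 7439.5 UMIs. A barcode sequence occurred in both libraries 48 times. The genotype entries in the labels contradict the titles, and groups follow the titles. In dermal cells the values went with the titles: eYFP had 927 mutant and 26 control UMIs. The Hedgehog targets Ptch1 and Gli1 had 7931 and 1125 UMIs in mutant dermal cells, against 349 and 190 UMIs in control dermal cells. Clusters were named from fixed marker lists as mesenchyme-like dermal cells (5134 mutant and 8706 control cells) and as epidermal-, muscle-, macrophage-, mast cell-, endothelial-, mural-, Schwann cell- and erythroid-like classes, each of at least 50 cells in both libraries. The suffix is left out from here on. Cluster 23, led by Lyz2, Cd52 and Ccr2, stayed unnamed.

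The 9 genes marked different tissues of the skin, and the leading class of each gene was the same in both libraries. UMIs were summed over the cells of a class and divided by all UMIs of those cells (as CPM, counts per 1000000 UMIs), which in 3′ libraries compares a gene between classes, not genes with each other. Ebf1 was highest in mural cells, the pericytes and smooth muscle around vessels, at 848 CPM in mutant and 844 CPM in control. The dermal class followed in the mutant library with 183 CPM, ahead of endothelium with 83.1 CPM. In the control library endothelium with 120 CPM and dermis with 112 CPM had overlapping intervals. Ebf1 was the only one of the 9 among the 10 leading genes of a cluster, that of the mural cells.

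Ebf2 had the narrowest range of the 3 Ebf genes. Mural cells held 42.4 CPM in mutant and 43.5 CPM in control, and dermal cells 11.1 and 7.30 CPM. No Ebf2 UMI was found in endothelial, macrophage, mast, Schwann cells or cluster 23 of either library, where 0 UMIs allow up to 3.15 and 3.28 CPM in the endothelial cells (3 counts per library). Ebf3 went another way: endothelium was its highest class, with 47.3 CPM in mutant and 40.5 CPM in control. Dermis followed with 36.2 and 16.4 CPM and muscle with 19.1 and 14.9 CPM, and mural cells held 11.9 and 5.20 CPM. In mutant cells the endothelial and dermal intervals of Ebf3 overlapped, and in control cells they did not.

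By CPM the adipogenic factors led in blood-derived cells, and only Cebpb stood apart there from other classes in both libraries. Cebpb, an early and inducible factor of adipogenesis and of myeloid cells, had 429 CPM in mutant and 404 CPM in control cells of cluster 23. Macrophages followed with 190 and 232 CPM, mast cells with 53.7 and 54.3 CPM and dermis with 52.4 and 38.7 CPM. Cebpa was highest in macrophages (18.8 and 26.6 CPM) and epidermis (13.1 and 12.8 CPM), and dermis held 2.08 and 2.13 CPM. The macrophage and epidermal intervals of Cebpa overlapped in the mutant library and not in the control library. Pparg was low in every class: its highest class level was 17.2 CPM (14 UMIs) in mutant and 7.34 CPM (7 UMIs) in control cells of cluster 23. These intervals overlapped those of the next class, macrophages in mutant (5.51 CPM) and dermis in control (3.77 CPM).

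The effector genes split between macrophages and vessels. Lpl, whose enzyme frees fatty acids from circulating triglycerides, had 92.7 and 90.4 CPM in mutant and control macrophages, 57.9 and 61.9 CPM in cluster 23 and 30.5 and 31.7 CPM in mural cells. In the control library 1 cell held 28 of the 59 Lpl UMIs of cluster 23. Fabp4, a fatty acid carrier of adipocytes and capillary endothelium, was almost confined to endothelium in both libraries, at 417 CPM in mutant and 158 CPM in control. Dermis held 9 Fabp4 UMIs in each library. Cd34, a sialomucin of endothelium, blood progenitors and stromal progenitors, had 362 and 439 CPM in endothelium, 111 and 121 CPM in mast cells and 18.1 and 31.2 CPM in dermis.

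**Figure D1:**
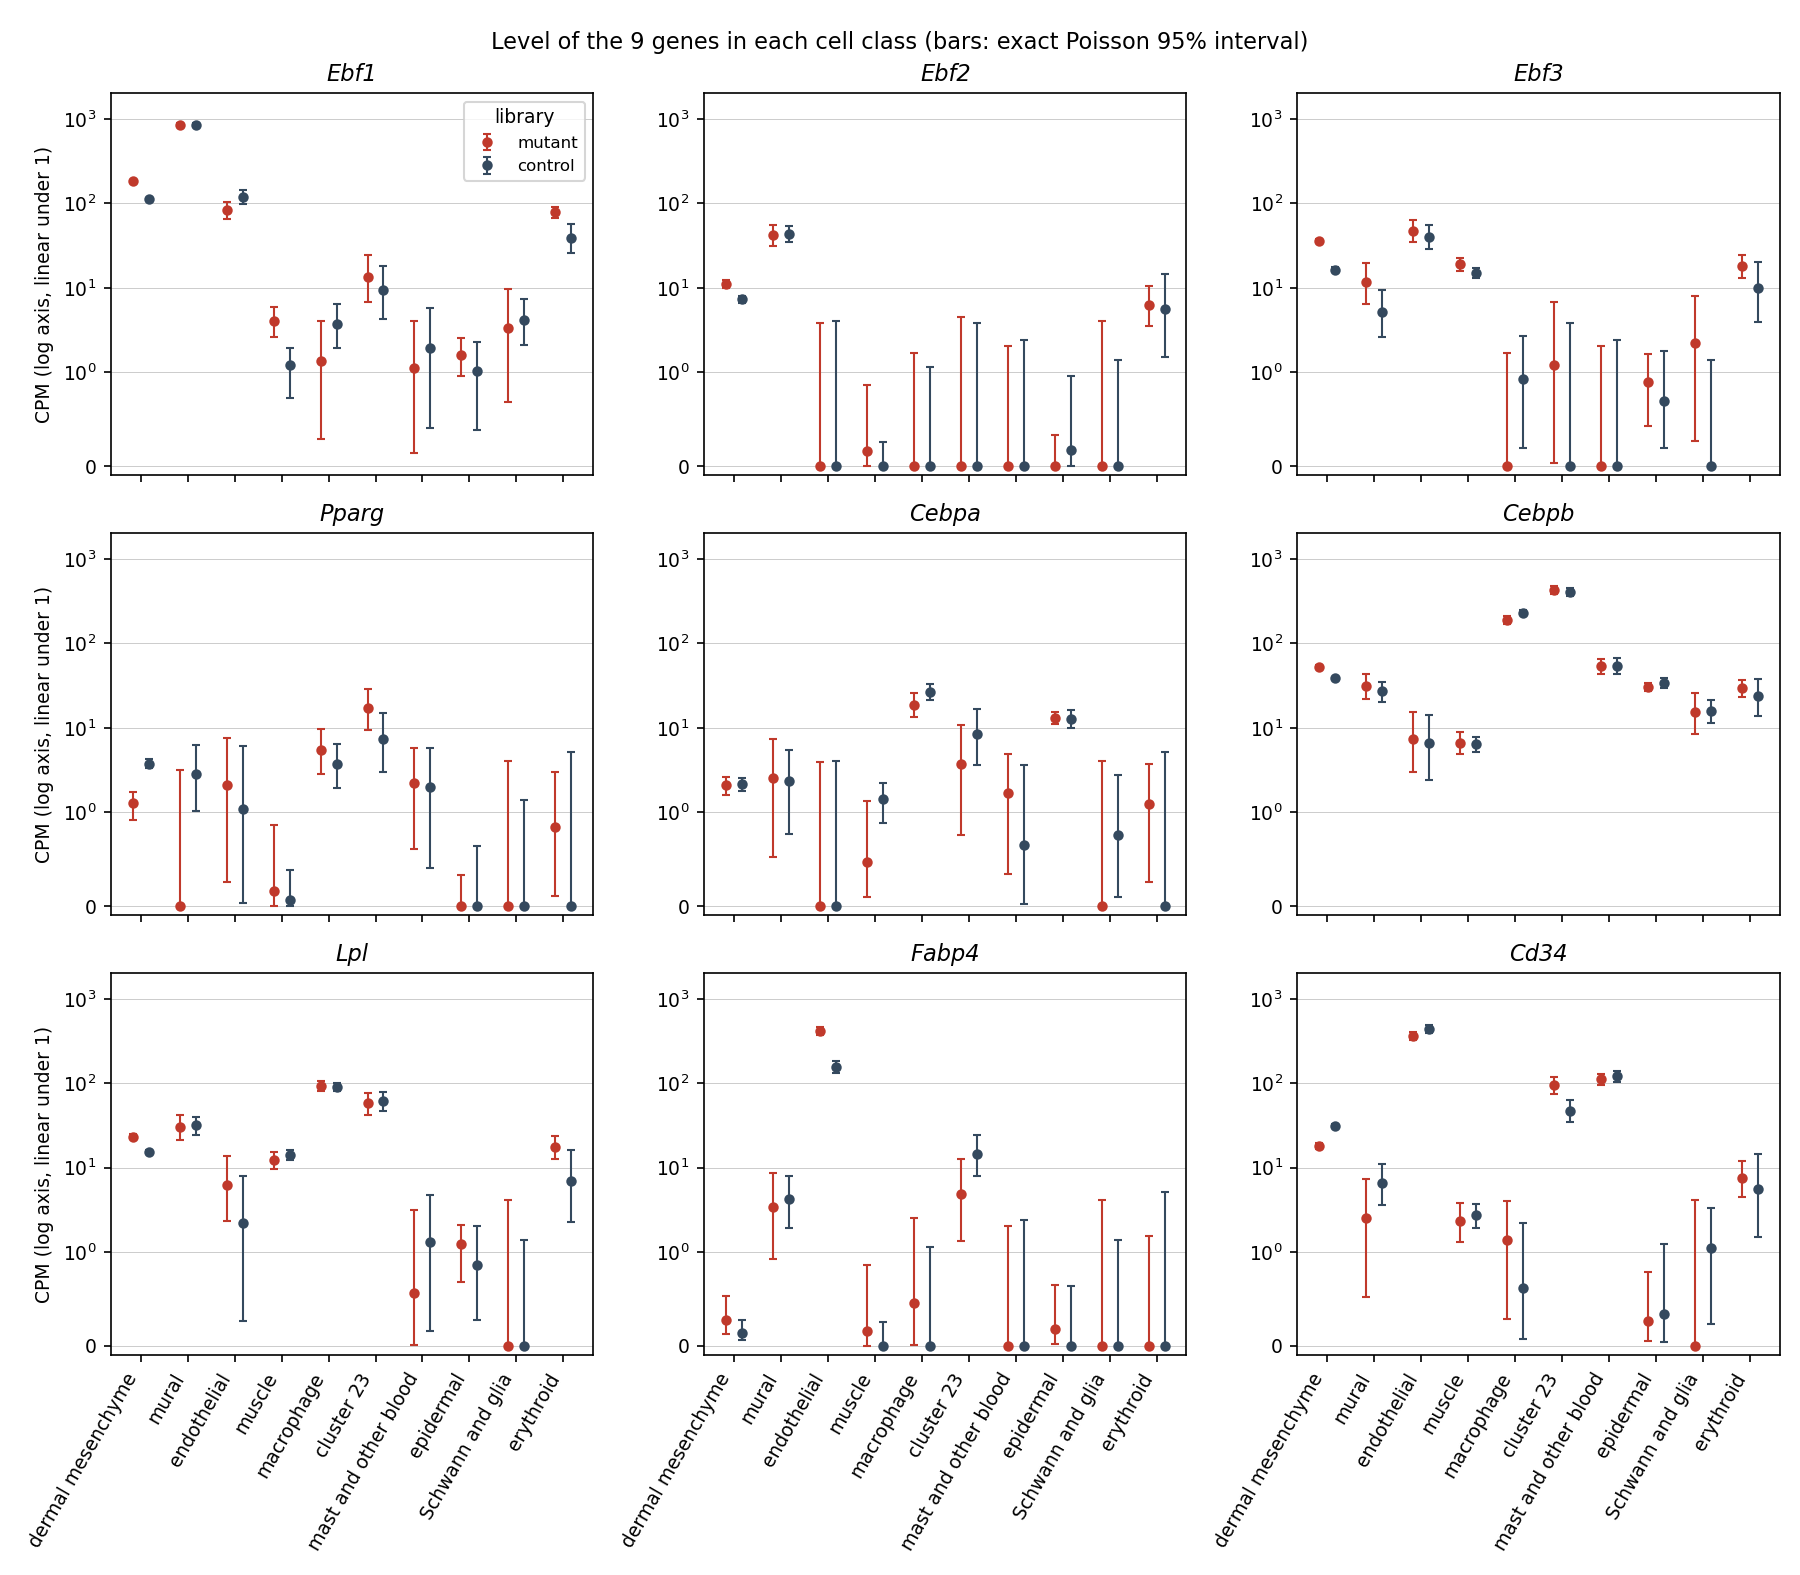
Level in CPM (log axis, linear under 1) of each of the 9 genes in 10 cell classes, with the mutant library in red at the left and the control library in dark grey at the right of each pair. Points are summed counts and bars exact Poisson 95% intervals. Ebf1 and Ebf2 peak in mural cells, Cebpb and Lpl in macrophages and cluster 23, and Fabp4 and Cd34 in endothelium.

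Background in droplets was low for the Ebf genes. After each cell was thinned to 3000 UMIs, an Ebf1 UMI was found in 35.0% of mutant and 21.9% of control dermal cells, and in 0.292% and 0.182% of epidermal cells. The unthinned shares were 52.2% and 34.0% in dermis, at median depths of 5870 and 6881.5 UMIs, and 1.01% and 0.903% in epidermis, at 7657 and 9783.5 UMIs. Ebf3 was found in 10.1% and 4.64% of thinned dermal cells, against 0.219% and 0.182% of epidermal cells. Red cell barcodes were an exception. Erythroid cells held Ebf1 at 78.0 CPM in mutant and 39.3 CPM in control, and the 12 dermal markers there summed to 4000 and 5292 CPM, with at least 1 of their UMIs in 95.2% and 96.8% of cells. The part of such dermal RNA in the erythroid values was not tested, and these values are read no further.

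In the dermal class as a whole, the 3 Ebf genes and Lpl were higher in the mutant library, Cd34 was lower, and Cebpb lay between. A gene was called where its CPM ratio, mutant over control, reached 1.5 in either direction and either library had at least 10 CPM. Ebf1 had 5905 UMIs (183 CPM) in mutant and 7026 UMIs (112 CPM) in control dermal cells. The ratio was 1.64 (1.59 to 1.70). Ebf3 had 1164 UMIs (36.2 CPM) in mutant and 1030 UMIs (16.4 CPM) in control, and this ratio of 2.21 (2.03 to 2.40) was the highest of the called genes among the 9. Ebf2 had 357 UMIs (11.1 CPM) in mutant and 459 UMIs (7.30 CPM) in control, a ratio of 1.52 (1.32 to 1.75) whose interval spans the threshold. All 3 Ebf ratios lay above 1 with their intervals. Ebf2 entered the count through its mutant level alone, since its control level is under 10 CPM.

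The share of dermal cells with transcripts moved with the levels. The 3 Ebf genes together made 231 CPM in mutant and 135 CPM in control dermis. Ebf1 gave 79.5% and 82.5% of these UMIs, shares to compare between the libraries and not between the genes. In cells thinned to 3000 UMIs, 259 mutant cells of 4785 (5.41%) held UMIs of 2 Ebf genes, and 246 control cells of 8419 (2.92%) did. UMIs of all 3 were found in 9 mutant and 13 control cells. Thinned cells with an Ebf2 UMI carried Ebf3 at 91.4 CPM (63.3 to 128) in mutant and 101 CPM (75.1 to 134) in control. Cells without one carried 37.5 CPM in mutant and 16.6 CPM in control, below both intervals, so in both libraries Ebf3 was higher in Ebf2-positive cells.

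Of the adipogenic factors, Cebpb had 52.4 CPM in mutant and 38.7 CPM in control dermis, a ratio of 1.35 (1.27 to 1.44) that was not called. Cebpa had 67 UMIs in mutant and 134 UMIs in control, a ratio of 0.976 (0.717 to 1.32). Pparg, the factor that commits cells to fat, had 41 UMIs (1.27 CPM) in 5134 mutant cells and 237 UMIs (3.77 CPM) in 8706 control cells. Its ratio of 0.338 (0.236 to 0.472) is 2.96-fold lower in the mutant (2.12 to 4.23), at levels under the 10 CPM minimum. After thinning, 0.460% of mutant dermal cells and 1.09% of control dermal cells had a Pparg UMI, and no epidermal cell of either library had one.

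Lpl was higher in mutant dermis, at 23.2 CPM against 15.3 CPM in control, a ratio of 1.52 (1.38 to 1.67). Cd34 was lower, at 18.1 CPM (584 UMIs) in mutant against 31.2 CPM (1958 UMIs) in control dermis, or 1.72-fold lower (1.56 to 1.89). Of the 6 genes at 10 CPM or more, 4 were called higher and 1 lower in the mutant, and 9.32% of the 8162 genes at that level in dermis were called, 4.45% higher and 4.88% lower. Their median log2 ratio, with 1 CPM added, was 0.56, and that of all 8162 genes 0.01. Without the minimum, over all 9 genes, 5 were past 1.5-fold higher and 2 lower, and the median was 0.43. The gene this added to the higher ones was Fabp4, with 9 UMIs in each library and a ratio interval of 0.687 to 5.55 that holds 1. No share of all genes is given without the minimum, so this count is read no further.

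Markers of other classes were also summed over the dermal cells. The 10 endothelial markers summed to 71.5 CPM in mutant and 75.0 CPM in control, the 9 mural markers (without Pdgfrb, at 49.5 and 62.9 CPM in dermis) to 57.5 and 54.4 CPM, the 10 macrophage markers to 3.48 and 4.28 CPM and the 12 mast and blood markers to 12.2 and 6.79 CPM, with a UMI of the last list in 7.03% of mutant and 4.50% of control cells. Pecam1, a defining endothelial gene, had 6 UMIs in mutant dermal cells. The 10 epidermal markers summed to 49.7 CPM in mutant and 43.7 CPM in control. Of them, Krt5 (3.57 and 0.859 CPM), Krt14 (4.66 and 1.34 CPM) and Krt15 (3.73 and 0.430 CPM) were higher in mutant. Epcam, Krt1 and Krt10 were lower. The 10 erythroid markers, mainly globins, summed to 1137 CPM in mutant and 225 CPM in control, and the 12 dermal markers, each at 10 CPM or more in both libraries, to 8167 and 11350 CPM. Among dermal cells with no UMI of the vessel and leukocyte lists the ratios were 3.01 for Ebf3, 1.86 for Ebf1 and 0.527 for Cd34.

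Most mutant dermal cells lay in clusters with few control cells. Of 13 dermal clusters, formed without the 9 genes, 8 had at least 50 cells of each library, and these held 1473 mutant cells (28.7%) and 6493 control cells (74.6%). Most other mutant cells were in clusters 2, 3 and 10, which had 3, 1 and 6 control cells and were led by genes such as Hhip, Ptch1 and Gal. In these clusters Ebf1 stood at 187, 147 and 129 CPM and Ebf3 at 27.5, 27.7 and 43.2 CPM. Ebf2 stood at 9.43, 4.62 and 0.998 CPM, and Pparg had 1, 0 and 0 UMIs in 1431, 1366 and 816 cells. The 3 clusters thus held Ebf1 and Ebf3 throughout, little Ebf2 in cluster 10, and next to no Pparg.

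Within the 8 shared clusters Ebf2 was the gene most often called. It was called in 5 of the 5 clusters in which it reached 10 CPM, each time higher, at ratios of 1.75 to 3.11 (in cluster 0 it reached that level in the mutant library alone). Ebf3 was called in 3 of 5 clusters (ratios of 1.34 to 2.55), Ebf1 in 3 of 8 (0.827 to 1.65) and Lpl in 4 of 8 (0.902 to 3.02), always higher in the mutant. Ebf3 in cluster 7 (20.2 CPM in mutant and 9.82 CPM in control) and Lpl in cluster 13 also reached 10 CPM in the mutant library alone, so each entered the count through the level that is high. The Lpl ratio of 3.02 in cluster 13 rests on 3 mutant and 19 control UMIs, with an interval of 0.573 to 10.3 that holds 1. The intervals of the Lpl calls in clusters 12 (0.937 to 2.92) and 14 (0.965 to 2.81) hold 1 as well. Only that in cluster 5 (1.21 to 3.25) does not. Of all genes at that level, 9.94%, 23.7%, 23.5%, 13.6%, 24.8%, 30.3%, 18% and 17.1% were called in clusters 0, 5, 6, 7, 12, 13, 14 and 17. Cluster 14, led by Ptn, Sfrp2 and Rspo3, had the highest Ebf2 and Ebf3 levels of any dermal cluster, with 113 CPM of Ebf2 in mutant against 64.8 CPM in control and 124 CPM of Ebf3 against 92.8 CPM. In the same cluster Pparg and Cebpb were called lower. Pparg had 5 UMIs (6.16 CPM) in 195 mutant cells and 65 UMIs (20.7 CPM) in 503 control cells, a ratio of 0.298 (0.0936 to 0.732). It reached 10 CPM there in the control library alone, and so entered the count through the level that is high. Cebpb had 19.7 and 31.8 CPM, a ratio of 0.620 (0.341 to 1.06) whose interval holds 1.

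Cd34 and Pparg did not keep the direction of the whole class when the shared clusters were summed. Cd34 was called in 1 of the 8 shared clusters, cluster 14, with 34.5 CPM in mutant and 81.1 CPM in control, and its ratio was above 1 in 4 clusters and below 1 in 4 (0.425 to 1.27). Summed over the shared clusters, Cd34 had a ratio of 1.21 and Pparg of 1.28. The cell mix of this sum differed between the libraries. Cluster 0 gave 575 of its 1473 mutant cells and 1405 of its 6493 control cells, and had a Cd34 ratio of 0.895. The median Cd34 ratio over the 8 clusters was 0.967. Pparg had ratios of 0.163 in cluster 7 (1 mutant and 38 control UMIs) and 0.298 in cluster 14. In clusters 12 and 17 its ratios were 0.777 and 0.883, from 2 and 3 mutant UMIs, with intervals that hold 1. Clusters 6 and 13 had 0 mutant Pparg UMIs against 2 and 1 in control. In cluster 5 the Pparg ratio was 1.28, from 1 mutant and 9 control UMIs. The part of the cell mix in the summed ratios was not tested. In cluster 0, a deep dermis cluster led by Col14a1, Pparg had 28 UMIs (10.6 CPM) in 575 mutant cells and 59 UMIs (6.46 CPM) in 1405 control cells, a ratio of 1.64 whose interval runs from just above 1 to 2.61. This cluster held 28 of the 41 dermal Pparg UMIs of the mutant library.

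**Figure D2:**
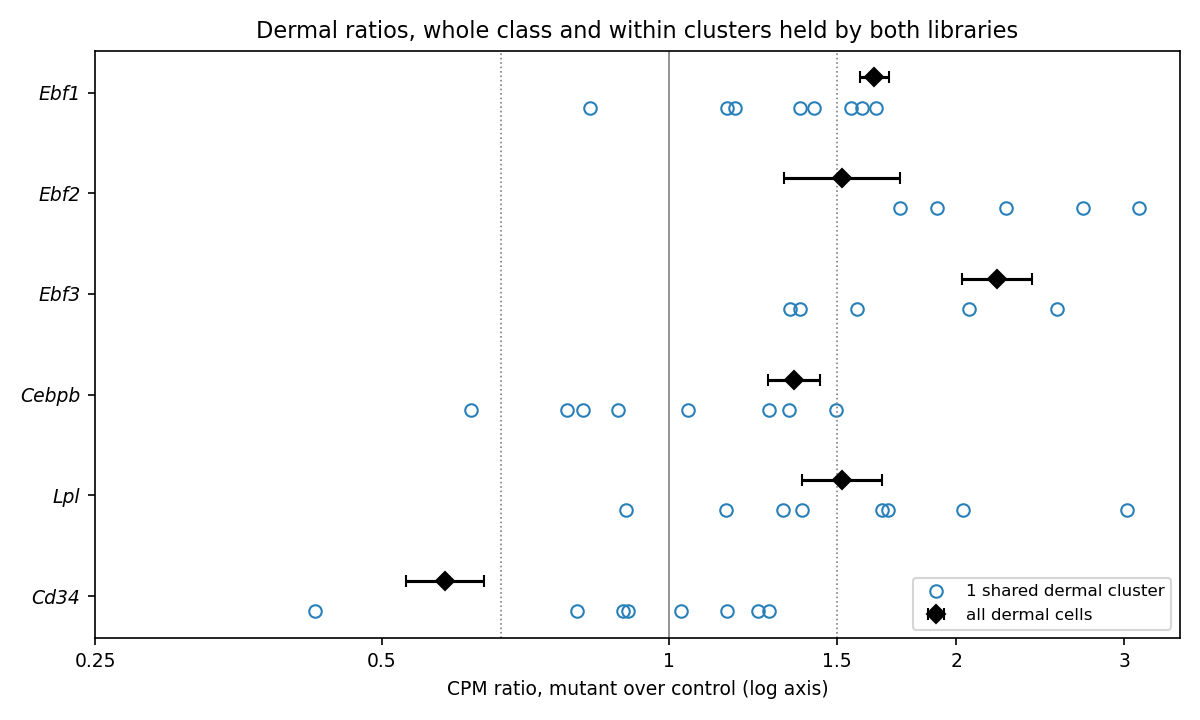
CPM ratio, mutant over control (log axis), of the 6 genes with at least 10 CPM in dermal cells. Black diamonds with 95% counting intervals are the whole dermal class, blue circles are single clusters with at least 50 cells of both libraries where the gene reached 10 CPM, and dotted lines mark 1.5-fold. The Ebf2 and Ebf3 circles all lie above 1, and the Cd34 circles lie on both sides of 1 while its diamond is at 0.582.

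The Ebf genes of the control library were low in Crabp1-high cells, and those of the mutant library much less so. Dermal cells were split, after thinning to 3000 UMIs, by Crabp1 (high at 3 or more UMIs) and by the sum of Dcn, Col14a1 and Abi3bp (deep-positive at 3 or more). The Crabp1-low deep-positive cells numbered 1883 in mutant and 3265 in control, and the Crabp1-high deep-negative cells 1273 and 2464. These 2 ranges are called deep and upper cells for short. In the mutant library Ebf3 stood at 43.7 CPM in the deep and 27.9 CPM in the upper cells, a ratio of 1.57 (1.34 to 1.84). In the control library Ebf3 stood at 34.3 CPM in the deep and 1.03 CPM in the upper cells, a ratio of 33.2 (21.3 to 54.6). The intervals of the 2 ratios are far apart.

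The other Ebf genes followed the same order. Ebf1 in deep over upper cells had a ratio of 2.39 (2.21 to 2.58) in mutant and 6.58 (6.05 to 7.16) in control. Ebf2 had 3.93 (2.71 to 5.88) in mutant and 18.8 (10.8 to 35.6) in control. For all 3 genes the deep to upper contrast was smaller in the mutant, beyond counting error.

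Pparg, Cd34 and Lpl were also higher in deep cells, without such a gap. Cd34 had a deep over upper ratio of 4.82 (3.57 to 6.64) in mutant and 4.33 (3.76 to 5.01) in control, and Lpl 1.83 (1.48 to 2.27) in mutant and 2.27 (1.91 to 2.71) in control. Pparg had 36 UMIs in deep and 0 in upper cells of the mutant library, at least 8.24-fold higher against a floor of 3 counts in the upper cells, and 187 and 6 UMIs in the control library (ratio 26.7). Cebpb was near even, at 0.774 (0.683 to 0.878) in mutant and 1.08 (0.983 to 1.20) in control. In both libraries 5 of the 6 genes at 10 CPM or more were called higher in deep cells, where 16.4% of genes in mutant and 24.5% in control were called, 9.44% and 12.6% in that direction. Several of them reached 10 CPM in the deep cells alone: Ebf2 and Cd34 in mutant, and Ebf2, Ebf3 and Lpl in control. Those entered the count through the range in which they are high.

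Set side by side between the libraries, the Ebf genes differed most in the Crabp1-high ranges. In Crabp1-high deep-negative cells Ebf1 stood at 104 CPM in mutant and 32.2 CPM in control, a ratio of 3.22 (2.90 to 3.58). Ebf3 had 226 UMIs (27.9 CPM) in mutant and 20 UMIs (1.03 CPM) in control, a ratio of 27.0 with a lower bound of 17.0. Ebf2, under 10 CPM in both, had 33 and 13 UMIs (4.07 and 0.673 CPM), a ratio of 6.06 (3.10 to 12.5). Of the 5 genes at 10 CPM or more there, Ebf1, Ebf3, Lpl (15.3 and 9.26 CPM) and Cebpb (58.1 and 37.5 CPM) were called higher and Cd34 (6.05 and 12.1 CPM) lower, where 13.4% of all genes were called, 7% higher and 6.4% lower. Ebf3 and Lpl reached 10 CPM there in the mutant library alone, and Cd34 in the control library alone. Each of these entered the count through the level that is high.

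In Crabp1-low deep-positive cells the Ebf ratios were nearer to 1 than in the Crabp1-high ranges, with each interval still above 1. Ebf1 stood at 249 CPM in mutant and 212 CPM in control, a ratio of 1.17 (1.12 to 1.23). Ebf2 and Ebf3 both had ratios of 1.27 (1.05 to 1.53 and 1.14 to 1.43). Cd34 was the only gene called, at 29.2 CPM in mutant and 52.2 CPM in control, 1.79-fold lower (1.59 to 2.02), where 11.6% of all genes were called and 5.07% called lower. Pparg there had 36 UMIs (3.05 CPM) in mutant and 187 UMIs (8.27 CPM) in control, a ratio of 0.369 (0.251 to 0.529).

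The 2 mixed ranges differed from each other. In Crabp1-high deep-positive cells (679 mutant and 2075 control) Ebf1 stood at 137 CPM in mutant and 46.5 CPM in control, a ratio of 2.95 (2.65 to 3.29). Ebf3 stood there at 20.9 and 2.41 CPM, a ratio of 8.68 with a lower bound of 5.90, and Ebf2 at 5.35 and 0.825 CPM. Lpl had a ratio of 1.54, and 12.2% of all genes were called, 6.14% higher. In that range Ebf3 reached 10 CPM in the mutant library alone. In Crabp1-low deep-negative cells (950 mutant and 615 control) Ebf1 stood at 178 CPM in mutant and 171 CPM in control and Ebf3 at 38.5 and 40.2 CPM, ratios of 1.04 and 0.956. There Ebf2 stood at 12.4 CPM in mutant and 32.1 CPM in control, 2.58-fold lower (1.96 to 3.42), and Cd34 was 3.39-fold lower, while Cebpb (2.18) and Lpl (1.58) were called higher. In that range 20.2% of all genes were called, 7.82% higher and 12.4% lower. In the control library Ebf2 was thus higher in the Crabp1-low deep-negative cells than in the deep cells. The Ebf3 intervals of these 2 ranges overlapped (34.5 to 46.6 and 32.0 to 36.8 CPM). All 3 Ebf genes of that library were lower in both Crabp1-high ranges than in both Crabp1-low ranges.

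**Figure D3:**
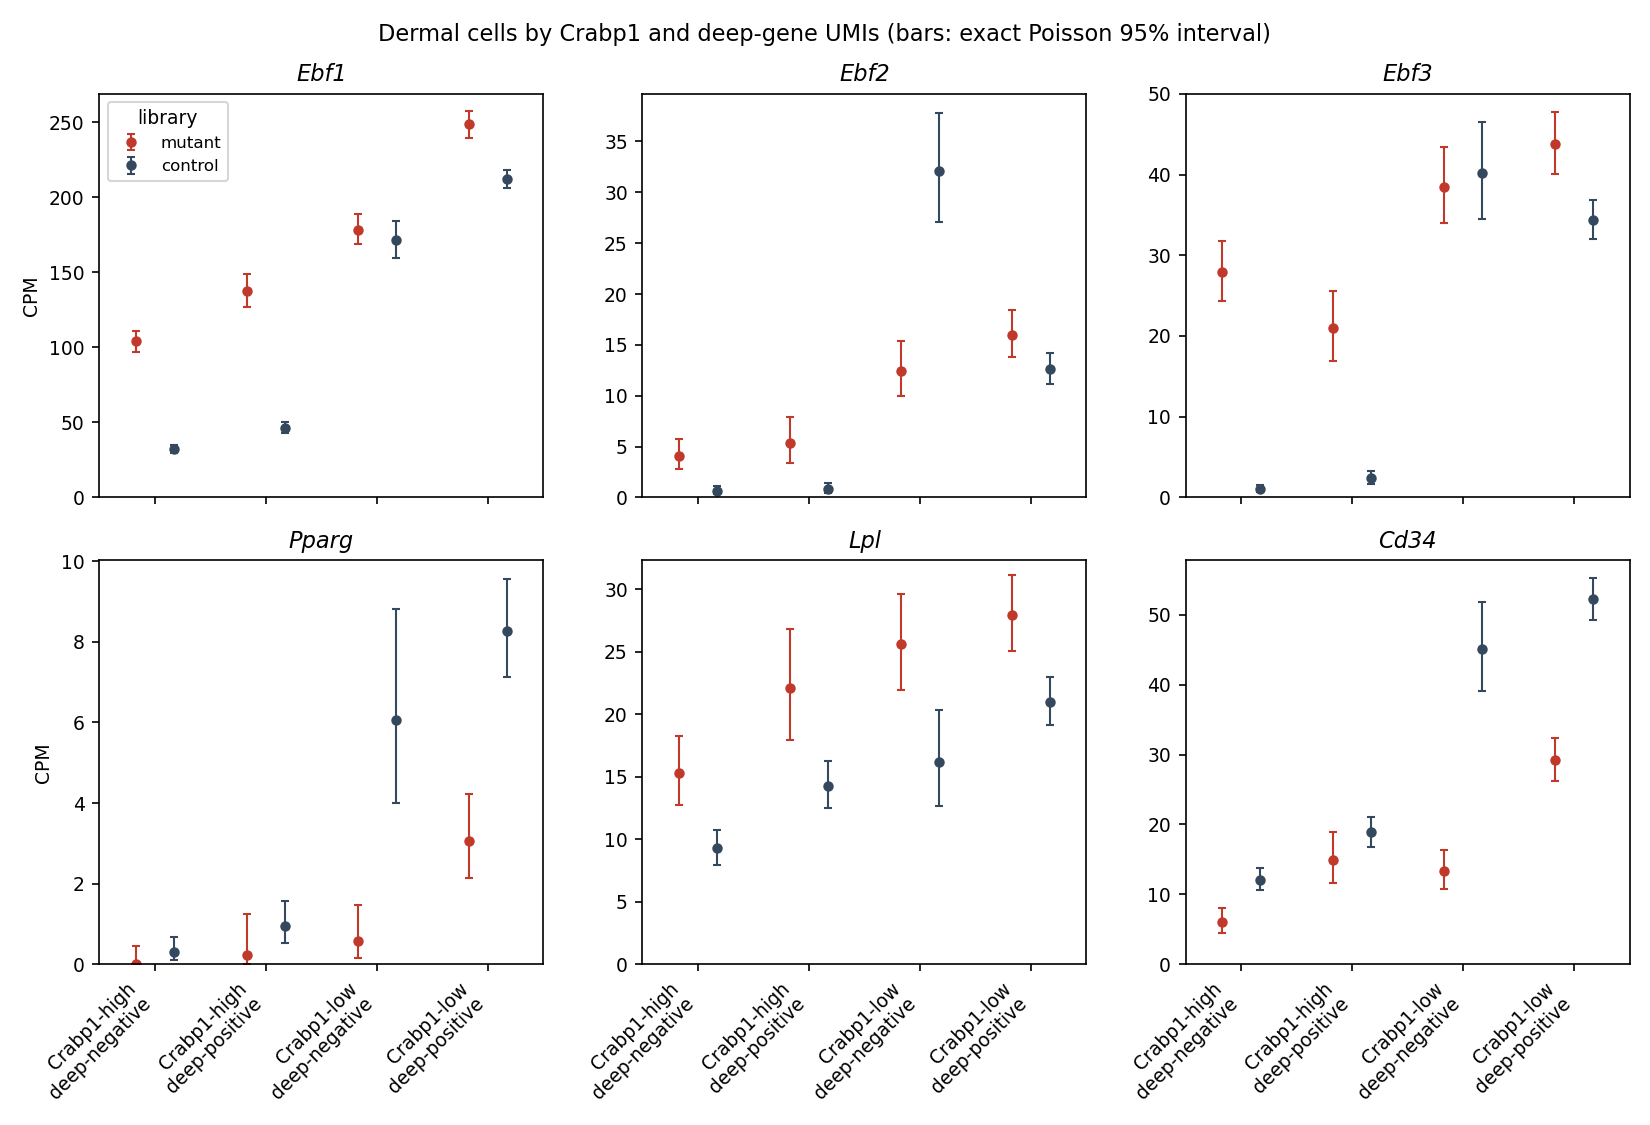
Level in CPM of 6 genes in 4 ranges of dermal cells set by Crabp1 and deep-gene UMIs, mutant in red at the left and control in dark grey at the right of each pair, with exact Poisson 95% intervals. In the Crabp1-high ranges the mutant points of Ebf1, Ebf2 and Ebf3 lie well above the control points, and in the Crabp1-low deep-positive range Pparg and Cd34 are lower in mutant.

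These ranges are cuts of a score, not cell types. Cells at 2 or 3 Crabp1 UMIs, next to the cut, numbered 880 of 4785 in mutant and 926 of 8419 in control, and 1293 and 2150 lay next to the deep-gene cut. Crabp1 was 1202 CPM in mutant and 2368 CPM in control dermis, and different clusters filled the ranges. Of the Crabp1-high deep-negative cells, clusters 3, 10 and 2 held 35.7%, 36.1% and 18.6% in mutant, and clusters 1, 6 and 13 held 34.2%, 26.5% and 19.0% in control. The mural markers summed to 81.9 CPM in deep and 36.0 CPM in upper cells of the mutant library, and to 94.2 and 27.8 CPM in those of the control library, so they moved with the Ebf contrast. The median cell of both ranges had 0 UMIs of the mural, endothelial, macrophage and mast lists in both libraries, and 6 UMIs of erythroid markers in mutant and 1 in control. The part of the clusters and of these markers in the Ebf values was not tested.

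Within the mutant library the 9 genes differed in how they went with Hedgehog target transcripts. The thinned UMIs of Ptch1, Gli1 and Hhip, which are induced by Hedgehog signalling, were summed per dermal cell, giving 2131 cells at 0, 1798 at 1 to 2 and 856 at 3 or more, with 3155 cells at 0 or 1. Ebf1 stood at 202, 154 and 185 CPM and Ebf3 at 37.1, 27.8 and 46.7 CPM in these ranges. Ebf2 stood at 17.0, 6.37 and 5.45 CPM, Cd34 at 26.2, 12.4 and 9.70 CPM, and Pparg at 3.07, 0.0807 and 0 CPM, with 40, 1 and 0 UMIs. Lpl was level at 24.4, 22.4 and 22.8 CPM. From 3 or more over 0, Ebf2 was 3.11-fold lower (2.14 to 4.66) and Cd34 2.70-fold lower (2.03 to 3.63), and the other 4 of 6 genes at 10 CPM or more were not called, where 9.93% of all genes were called and 4.73% called lower. Of these 2 end ranges, Ebf2 and Cd34 reached 10 CPM at 0 target UMIs alone. Both thus entered the count through the range in which they are high.

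The control library had 8124 cells at 0, 295 at 1 to 2 and none at 3 or more. Mutant cells at 0 still carried Ebf1 at 202 CPM against 113 CPM in control cells at 0, and Ebf3 at 37.1 against 16.7 CPM. At 3000 UMIs a cell, 0 target UMIs does not show that a cell lacks these transcripts. Across the mutant ranges the mural markers summed to 74.1, 44.9 and 38.6 CPM and the dermal markers to 9468, 7095 and 7028 CPM, and the median cell had 0 UMIs of the vessel and leukocyte lists in each. The part of these in the values was not tested.

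**Figure D4:**
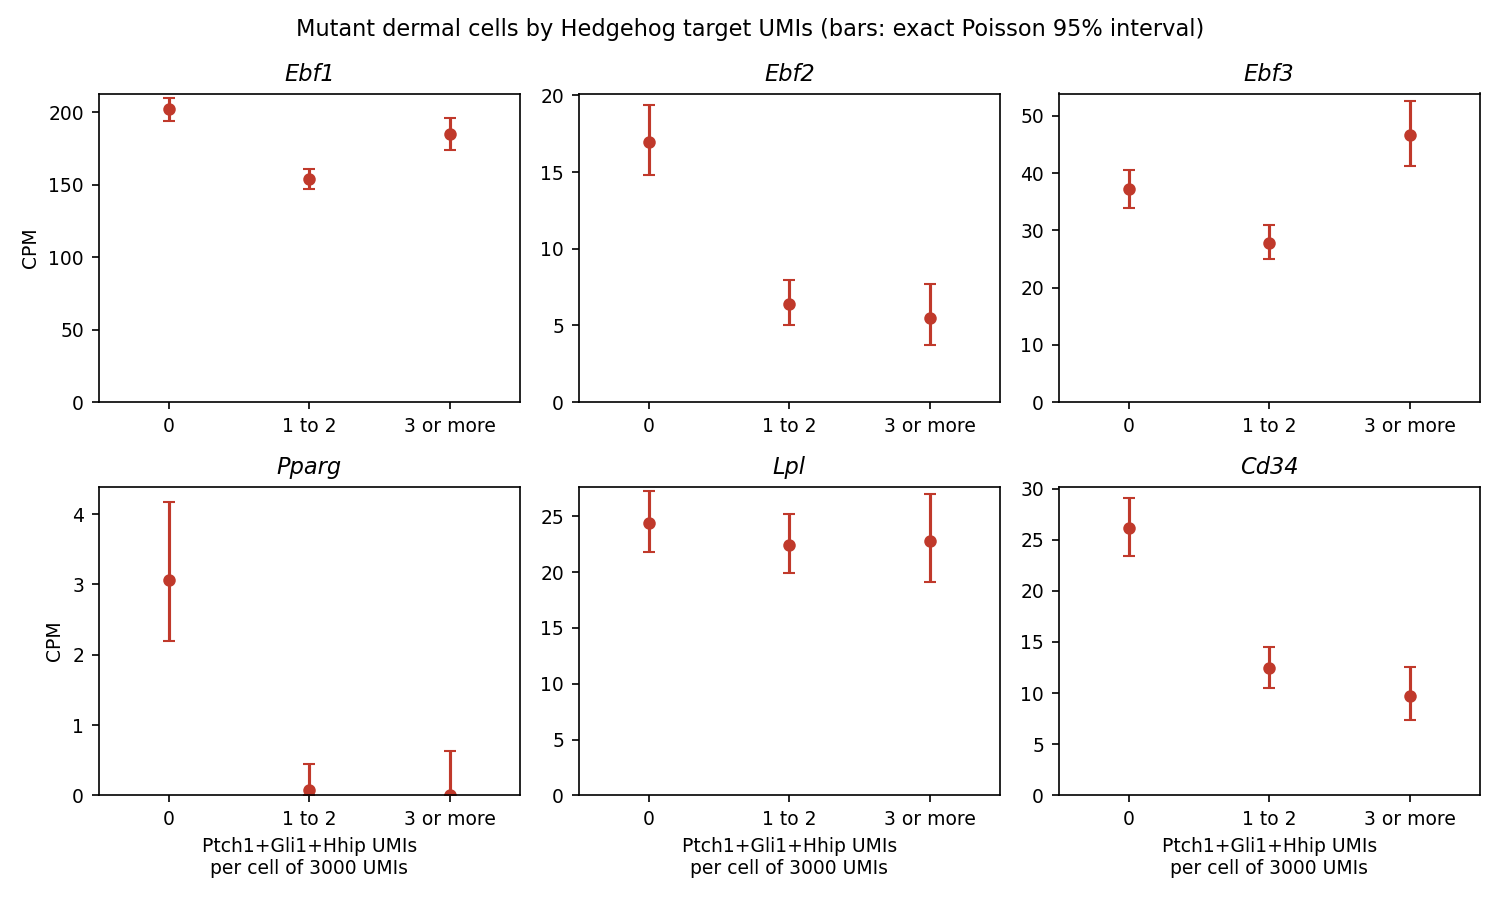
Level in CPM of 6 genes in mutant dermal cells at 0, 1 to 2, and 3 or more Hedgehog target UMIs per cell thinned to 3000 UMIs, with exact Poisson 95% intervals. Ebf2, Pparg and Cd34 are highest at 0 target UMIs, and Ebf1, Ebf3 and Lpl did not pass 1.5-fold between the end ranges.

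Outside the dermis few members differed. In endothelium Fabp4 had 397 UMIs (417 CPM) in 114 mutant cells and 144 UMIs (158 CPM) in 102 control cells, a ratio of 2.65 (2.18 to 3.23). The cells with a Fabp4 UMI were alike in number, 39 in mutant and 31 in control, and those in the mutant held a median of 4 UMIs against 2 in control. The 5 cells with most Fabp4 held 45.1% of its UMIs in mutant and 59.0% in control, and without them the levels were 257 and 71.9 CPM. Fabp4 was 1 of the 4 genes at 10 CPM or more, and 20.3% of all endothelial genes were called, 9.73% higher. Endothelial markers summed to 4436 CPM in mutant and 4779 CPM in control, erythroid markers to 22676 and 6505 CPM, macrophage markers to 82.0 and 10.9 CPM, mast and blood markers to 137 and 70.1 CPM and dermal markers to 57.8 and 187 CPM. The part of these lists in the Fabp4 value was not tested.

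In cluster 23 Cd34 had 77 UMIs (94.9 CPM) in mutant and 45 UMIs (47.2 CPM) in control cells, a ratio of 2.01 (1.37 to 2.97). Pparg had 14 and 7 UMIs there, a ratio of 2.35 (0.887 to 6.88) whose interval holds 1. Fabp4 had 4 and 14 UMIs, and the 14 UMIs of the control library came from 1 cell. These were 2 genes called higher and 1 lower of 6, where 24.8% of all genes were called, 15.1% higher and 9.68% lower. Pparg reached 10 CPM there in the mutant library alone, and Fabp4 in the control library alone. In mural cells Ebf3 was the only one called of 5, with 14 UMIs in mutant and 11 UMIs in control, a ratio of 2.28 (0.962 to 5.55), where 13.3% were called, 7.21% higher. Mural Ebf3 reached 10 CPM in the mutant library alone (11.9 and 5.20 CPM). Mural Ebf1 and Ebf2 had ratio intervals of 0.928 to 1.09 and 0.676 to 1.39. None of the 9 genes was called in epidermal, muscle, macrophage, mast or Schwann cells, where 6.69%, 3.47%, 12.2%, 12.5% and 14.2% of genes were.

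Other genes of the adipogenic pathway gave no common direction in dermis. Of 21 other regulators of adipogenesis, 11 reached 10 CPM. Nr2f2, an orphan nuclear receptor gene, was higher at 59.4 CPM in mutant and 20.0 CPM in control, a ratio of 2.96 (2.76 to 3.19). Tcf7l2, a Wnt pathway factor gene, was higher at 1.54-fold, and Zfp467, a zinc finger gene that favours fat over bone in mouse marrow stroma, was 1.62-fold lower. The list's median log2 ratio was 0.05, near that of all genes. Zfp423, Zfp521 and Cebpd, regulators that act with or beside EBF and C/EBP proteins, had ratios of 1.25, 1.02 and 1.03, and Ebf4, the fourth Ebf gene, had 1.68 and 3.21 CPM.

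Of 12 restrainers of adipogenesis, 8 reached 10 CPM and 1 was called, Foxo1, a forkhead factor gene of insulin signalling, at 11.2 CPM in mutant and 7.13 CPM in control (ratio 1.56). Foxo1 reached 10 CPM in the mutant library alone, so it entered the count through the level that is high. The list's median log2 ratio was −0.22. Dlk1, whose product holds preadipocytes back from differentiation, stood at 1549 CPM in mutant and 1794 CPM in control. Of 25 adipocyte lipid genes, 9 reached 10 CPM and only Fabp5, a fatty acid carrier gene of skin, was called, at 904 CPM in mutant and 481 CPM in control (ratio 1.88), with a list median of 0.02. The part of epidermal RNA in the Fabp5 value was not tested. Genes of mature fat were at or near 0: Adipoq had 10 UMIs in mutant and 0 in control, and Cidec, Lep and Ucp1 had none in either library.

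Of 17 progenitor and fascia markers, 12 reached 10 CPM. Thy1, a stromal surface gene, was higher at 91.7 CPM in mutant and 35.1 CPM in control (ratio 2.61), and Cd24a (1.71) and the microfibril gene Mfap5 (1.65) were higher too. Dpt, a dermal matrix gene, was lower at 21.3 CPM in mutant and 41.6 CPM in control, or 1.96-fold lower. The list's median log2 ratio was 0.26, and Pdgfra, a general fibroblast gene, had 105 and 144 CPM. The 9.32% of dermal genes called in all is the share to set beside these 4 lists.

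Across the 21 class and library profiles, likeness of profile was measured by Pearson's r of log2(CPM + 1) over these profiles among 9175 genes, given as a description, since profiles of 1 library share depth and cells. Closest to Ebf1 were Chst1 (r = 0.96), Mylk and Vegfc, to Ebf2 Ntrk2 (0.98), Kcnj8 and Tnmd, and to Ebf3 Piezo2 (0.93), Igf2 and Dchs1. Closest to Cebpb were Ifi30 (0.96), Prkcd and Tnfaip8, to Cebpa Calhm6 (0.83), Tmem141 and Serpinb8, and to Pparg Cysltr1 (0.88), Txk and Psme2. Closest to Lpl were Fcgrt (0.86), Lsp1 and Ccl2, to Fabp4 Abhd17a (0.92), Grrp1 and Adgrl4, and to Cd34 Itpr1 (0.91), Pecam1 and Lat. Among the 9 genes themselves, Ebf1 and Ebf2 had r = 0.84 and Ebf1 and Ebf3 r = 0.65.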

How the data were processed

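The values were deposited UMI counts per gene and cell barcode, 1 filtered matrix per library, made by the authors with Cell Ranger 5.0.1 against mm10 per the submitters' processing notes; strand and intron settings are not given in the sources used here. No deposited cell annotation was used. Barcodes with at least 1000 genes and at most 10% mitochondrial UMIs were kept (8783 mutant, 12120 control), and Scrublet (scanpy 1.11.5) removed 278 (3.17%) and 610 (5.03%) as doublets. Counts per 10000 UMIs were log transformed, and 2000 variable genes without the 9 genes gave 30 components, 15 neighbours and Leiden clusters at resolution 1. Clusters were named from marker lists by their leading genes by fold, with 50 CPM added to the fold. This addition was raised from 10 CPM after the clusters were seen, since 10 CPM left cluster 0 unnamed, and the dermal results are also given without that cluster. The members and all lists were chosen with earlier results of these data known.

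UMIs were summed per class and library and scaled to CPM. Levels have exact Poisson, ratios exact conditional binomial and shares Clopper-Pearson 95% intervals. PCR duplicates are collapsed by UMI, and intervals cover counting error only. No test was possible with 1 library a group. Pathway genes were named where called, and any other named (such as Zfp423, Ebf4, Dlk1, Pdgfra and Adipoq) was chosen after its values were seen, as were the Hedgehog ranges, the joint Ebf counts and the counts per cell of Fabp4 and Lpl. Mutant dermal cells were shallower than control dermal cells, and shares were therefore compared after thinning. The mean over summed counts weights deep cells more. The calculation was tested on simulated counts.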

Additional observations from a re-analysis of the deposited data

Results flagged for a closer look

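The ratio of Fabp4, mutant over control, went opposite ways in 2 cell groups, at 2.65 in endothelial cells and 0.336 in cluster 23. The difference was not tested, and the 14 control UMIs behind the second ratio came from 1 cell. The ratio of Cd34 was 2.01 in cluster 23 and 0.582 in dermal cells, and this difference was not tested either.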

How the results depend on the processing

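No paired analysis was possible because each group has 1 library, and none could be left out in turn. In dermis, limited to clusters with at least 50 cells of both libraries (an alternative chosen after seeing the data), 0 of the 9 genes were called lower, the median log2 ratio was 0.83, and Cd34 reversed to a log2 ratio of 0.27 (ratio 1.21), while Pparg reached 1.28. The cell mix of those clusters differed between the libraries, and within them the median Cd34 ratio was 0.967. Without cells holding vessel or blood markers the median was 0.72. With no CPM minimum 2 genes were called lower and the median was 0.43. At a minimum of 50 CPM, and likewise at 2-fold, 1 was called higher and 0 lower. With 10 CPM added the median was 0.37. The cause was not tested, beyond fewer genes passing stricter limits. The other counts stayed within 1.5 times, and the median after thinning was 0.46: the count called higher in dermis was 3 at Leiden resolution 2, after thinning and without cluster 0, and the deep over upper count was 5 to 7 in mutant and 4 to 6 in control. No share of all genes called is given for the alternative settings, so their counts are read no further. TMM scaling moved log2 ratios by 0.00709. Over the 10 alternatives the dermal ratio ran from 1.59 to 2.19 for Ebf1, 1.75 to 3.01 for Ebf3, 1.22 to 3.04 for Ebf2, 1.31 to 1.70 for Lpl, 0.527 to 1.21 for Cd34 and 0.133 to 1.28 for Pparg. Ebf2 was under 1.5 after thinning (1.28), without cluster 0 and with 10 CPM added. Depth limits Pparg, Cebpa and Fabp4, each under 5 CPM in dermis.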
